A study of Mus musculus with 76 samples.

Results

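Control neural cultures of the mouse strain WSB/EiJ (WSB) were compared between the stage of axonal regrowth (axon) and the stage of neuronal maturation. The libraries were chosen by the condition named in the deposited table, and repeat runs of a library were summed. This gave 4 axon and 4 maturation libraries, from 10 of the 76 sequenced samples and 8 of the 70 libraries of the series. All cultures were differentiated from embryonic stem cells of this wild-derived inbred strain. The axon controls carried the label of a control for both treatments of that stage, the Dyrk1a inhibitor ID-8 and axotomy, so they had neither. The maturation controls carried the label of a control for the single treatment of that stage. The control cultures of the other strain, C57BL/6J (B6), enter once, to test where the difference between stages differed between strains. The labels give no days in culture, name no parent clones and do not say whether libraries of 1 stage came from separate differentiations, so p-values measure only the spread between these libraries, which may be technical.

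Neurons grown from stem cells pass through a phase in which they extend axons, guided by attractive and repulsive cues read by receptors on the growth cone, before synapses form and channels of the mature membrane appear. Such cultures also hold dividing progenitors, astrocytes, oligodendrocyte precursors and cells of mesenchymal character. Type I interferon is a signal by which cells switch on a shared set of antiviral genes, and glia can take up a reactive state with secreted proteins of the acute phase. Each library here holds RNA of a whole culture, so fewer cells of a type and less RNA per cell cannot be told apart.

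The depth was 24.05 to 45.67 times 1e6 expected counts in the axon libraries and 25.12 to 31.56 times 1e6 in the maturation libraries. Library numbers put axon replicates 1 to 3 in 1 series and axon replicate 4, with all maturation libraries, in another. A batch column of the deposited table splits them further, with axon replicate 4 in a batch of its own, so that by this column stage and batch cannot be told apart. The maturation libraries fell into 2 pairs by the culture names in the table, replicates 1 and 2 and replicates 3 and 4. Within a pair the root mean square difference of log2 values over genes was 0.24 and 0.25, against 0.57 to 0.58 across pairs and 0.88 to 1.41 between stages. Axon replicates 2 and 3 differed by 0.26, whereas replicate 1 stood 0.66 to 0.75 from them and replicate 4 stood 0.83 to 1.04 from the other axon libraries. Repeat runs of 1 library gave a chi-square per degree of freedom of 2.30 and 2.33, and no pair of libraries came below 15.8, so none was counted as the same library.

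Of 16087 genes tested in the 8 libraries with edgeR, 3169 (19.7%) were higher and 3022 (18.8%) lower at the axon stage at an adjusted p under 0.05. Of these, 1688 were higher and 2057 lower by 2-fold or more. The 2 groups of libraries did not overlap for 6706 genes (41.7%). The median difference over all genes was 0.008 on the log2 scale, and changes are given as they were fitted. Scaling with TMM factors centres the differences, so this median cannot show whether most genes shifted together. A second fit took in all 23 WSB libraries of both stages, the 8 controls and 15 that were treated with ID-8, cut or both, each with its own group, and had the library series as a term. It called 3630 genes (20.7%) higher and 4022 (22.9%) lower between the control groups. This fit differs from the first in its samples as well as in the series term, and the 23 libraries without that term gave 2888 higher and 2664 lower. In both fits 2255 genes (14.0%) were higher and 2336 (14.5%) lower, and 0 were called in opposite directions. Axon replicate 4 alone, in the series of the maturation libraries, gave 2830 genes (16.3%) higher and 2959 (17.1%) lower, with the spread of the lone library assumed to be that of the others. Summing the maturation libraries of each pair, which leaves 4 axon against 2 maturation samples, lowered the calls to 1083 genes higher (6.35%) and 1342 lower (7.87%), and keeping only maturation replicates 3 and 4 gave 1193 and 1344. For the gene groups below, the count under this summing is given beside the count from the 8 libraries. Log2 differences are axon minus maturation. The ± value of a log2 difference is an approximate standard error worked back from the F statistic of the edgeR test. It therefore adds no evidence beyond the p-value. Levels are counts per 1e6 counts of the library (CPM) scaled with TMM factors, with n = 4 libraries a stage.

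**Figure D1:**
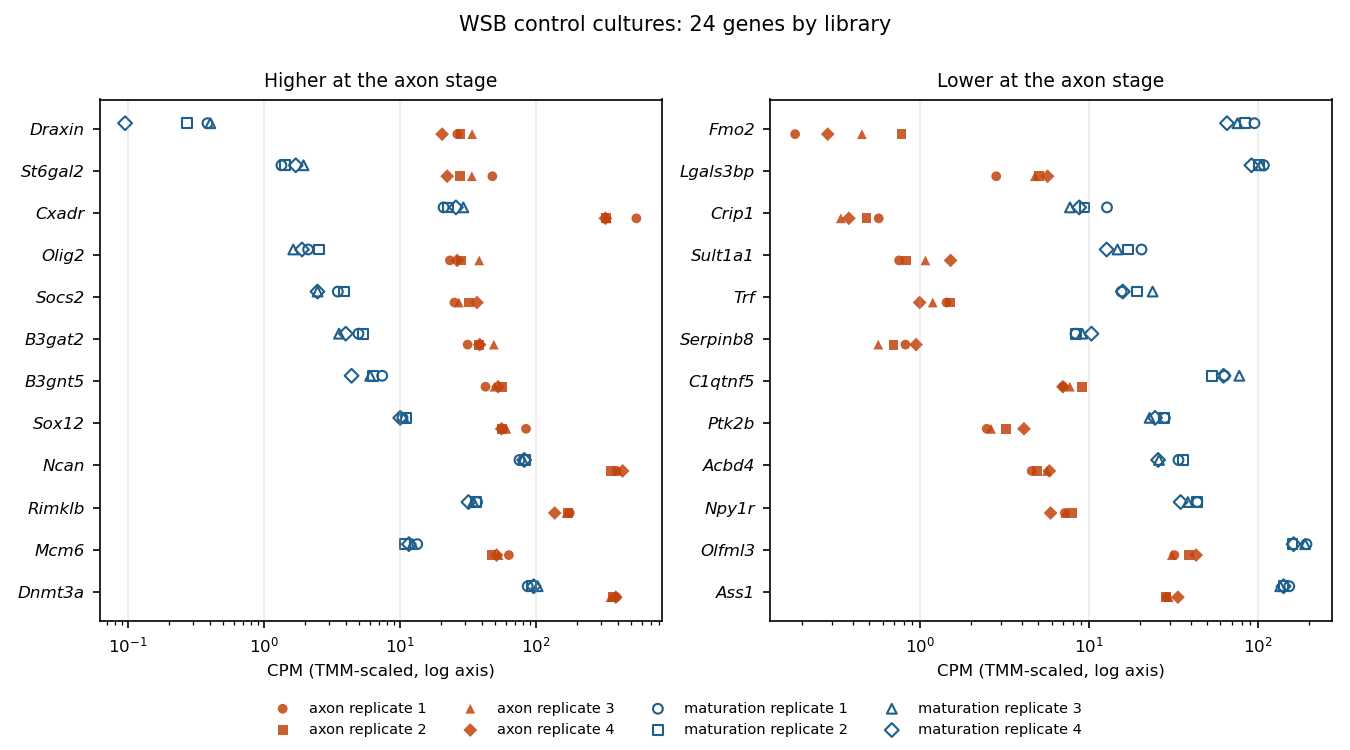
CPM (log axis) of the 12 genes with the smallest p in each direction that were called in both fits; filled symbols are the 4 axon libraries and open symbols the 4 maturation libraries, with 1 symbol shape per replicate. No axon library overlaps a maturation library for any of the 24 genes, which the rule for choosing them required.

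Many genes of growing axons were higher at the axon stage. Draxin, which encodes a secreted guidance protein that repels axons (chr4:148098437-148130698, GRCm38), read 26.4, 27.9, 34.0 and 20.4 CPM in axon replicates 1 to 4 and 0.384, 0.27, 0.403 and 0.0951 CPM in maturation replicates 1 to 4. Every axon library was above 20 CPM and every maturation library below 0.5 CPM, and the difference was 6.55 ± 0.40 (edgeR adjusted p = 6.42e-05). Dcx, the microtubule protein of migrating and young neurons (chrX:143855842-143933311), read 779, 280.2, 283 and 213 CPM at the axon stage and 6.75, 7.91, 11.4 and 10.8 CPM at maturation. Axon replicate 1 was far above the other axon libraries, which were in turn above all maturation libraries, with a difference of 5.40 ± 0.48 (adjusted p = 0.000155). Of the 22 genes of neurofilaments and the axonal cytoskeleton, 14 were higher and 0 lower, with a median of 1.27 (7 higher with summed maturation libraries and 8 with library series). The higher members were mostly genes of tubulins, stathmins, collapsin response mediators and other microtubule proteins, and Ina was the only intermediate filament gene among them. In the fit of genes without shared sequence 11 of 19 members were higher, with a median of 0.82. Dpysl3, a collapsin response mediator that acts on growth cone microtubules, read 2401, 1423, 1449.7 and 1182 CPM against 194, 169, 182 and 181 CPM and differed by 3.15 ± 0.26. Its paralogue Crmp1 read 1279, 561, 699.7 and 467 CPM against 58.1, 57.7, 84.6 and 96.6 CPM, a difference of 3.34 ± 0.36. All 4 axon libraries exceeded all maturation libraries for both genes, and replicate 1 was the highest of the axon libraries. Stmn1, which destabilises microtubules, differed by 2.67 ± 0.23 and the tubulin gene Tubb2b by 3.05 ± 0.34. Part of the sequence of Stmn1 (18.9% of its windows) and Tubb2b (36.9%) is shared with other genes, so their counts are less certain.

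The pan-neuronal list moved in both directions. Of its 18 genes, 11 were higher and 3 lower (3 and 1 with summed maturation libraries), and the median was 1.08. In the fit with library series the counts were 4 and 3. Mapt, which encodes the axonal microtubule protein tau, read 1808, 933, 1066 and 907 CPM at the axon stage and 160.1, 164, 289 and 308 CPM at maturation, a difference of 2.36 ± 0.33 (adjusted p = 0.000919). The RNA-binding protein gene Elavl3 differed by 1.54 ± 0.23. In contrast, the 3 lower genes were Thy1, Eno2 and Snap25, which encode a surface glycoprotein, the neuronal enolase and a protein of vesicle fusion. Thy1 read 86.2, 73.1, 103 and 71.3 CPM against 243, 249.7, 255 and 274 CPM, with no overlap and a difference of -1.62 ± 0.16. Map2, the dendritic marker, read 1600.1, 1144, 1324 and 1128 CPM at the axon stage against 637, 647, 1179 and 1143 CPM at maturation. Its groups overlapped, and it did not pass the test (0.53 ± 0.27, adjusted p = 0.148). The summed level of the list was 12797, 7021, 8204 and 6093 CPM in the axon libraries and 4109.8, 4176, 5801 and 5971 CPM in the maturation libraries, with replicate 1 highest at the axon stage and replicates 1 and 2 lowest at maturation.

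Among receptors and ligands of axon guidance, more genes were higher than lower at the axon stage. Among 29 semaphorins, plexins and neuropilins, 15 were higher and 4 lower (8 and 2 with summed maturation libraries), with a median of 1.01. The transmembrane ligand gene Sema6a read 177, 143, 129 and 253 CPM at the axon stage and 34.2, 33.6, 43.4 and 39.7 CPM at maturation. Replicate 4 was the highest of the axon libraries, the groups did not overlap, and the difference was 2.22 ± 0.23. Sema5b differed by 2.03 ± 0.23 and the semaphorin receptor gene Plxna3 by 1.56 ± 0.19. The secreted Sema3b went the other way, from 36.0 to 73.1 CPM at maturation to 6.23 to 13.7 CPM at the axon stage (-2.41 ± 0.30). Of 31 genes for ephrins, their receptors, slits, netrins and their receptors, 17 were higher and 2 lower (8 and 2 with summed maturation libraries), with a median of 0.82. Robo2, a receptor for slit repellents, read 174, 158, 152 and 199.5 CPM against 31.8, 36.8, 56.1 and 58.1 CPM and differed by 1.90 ± 0.23. The ephrin receptor gene Ephb3 differed by 1.73 ± 0.18, Epha7 by 1.38 ± 0.15 and the ligand gene Efna2 by 2.19 ± 0.28. The 2 lower members were the secreted cues Slit3 (-2.17 ± 0.35) and Ntn4 (-1.45 ± 0.22). All of the named guidance genes had non-overlapping groups of libraries, which their choice by small p or by their values favours. Over the 2 lists 18 of 29 and 18 of 31 genes did not overlap, against 41.7% of all genes.

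**Figure D2:**
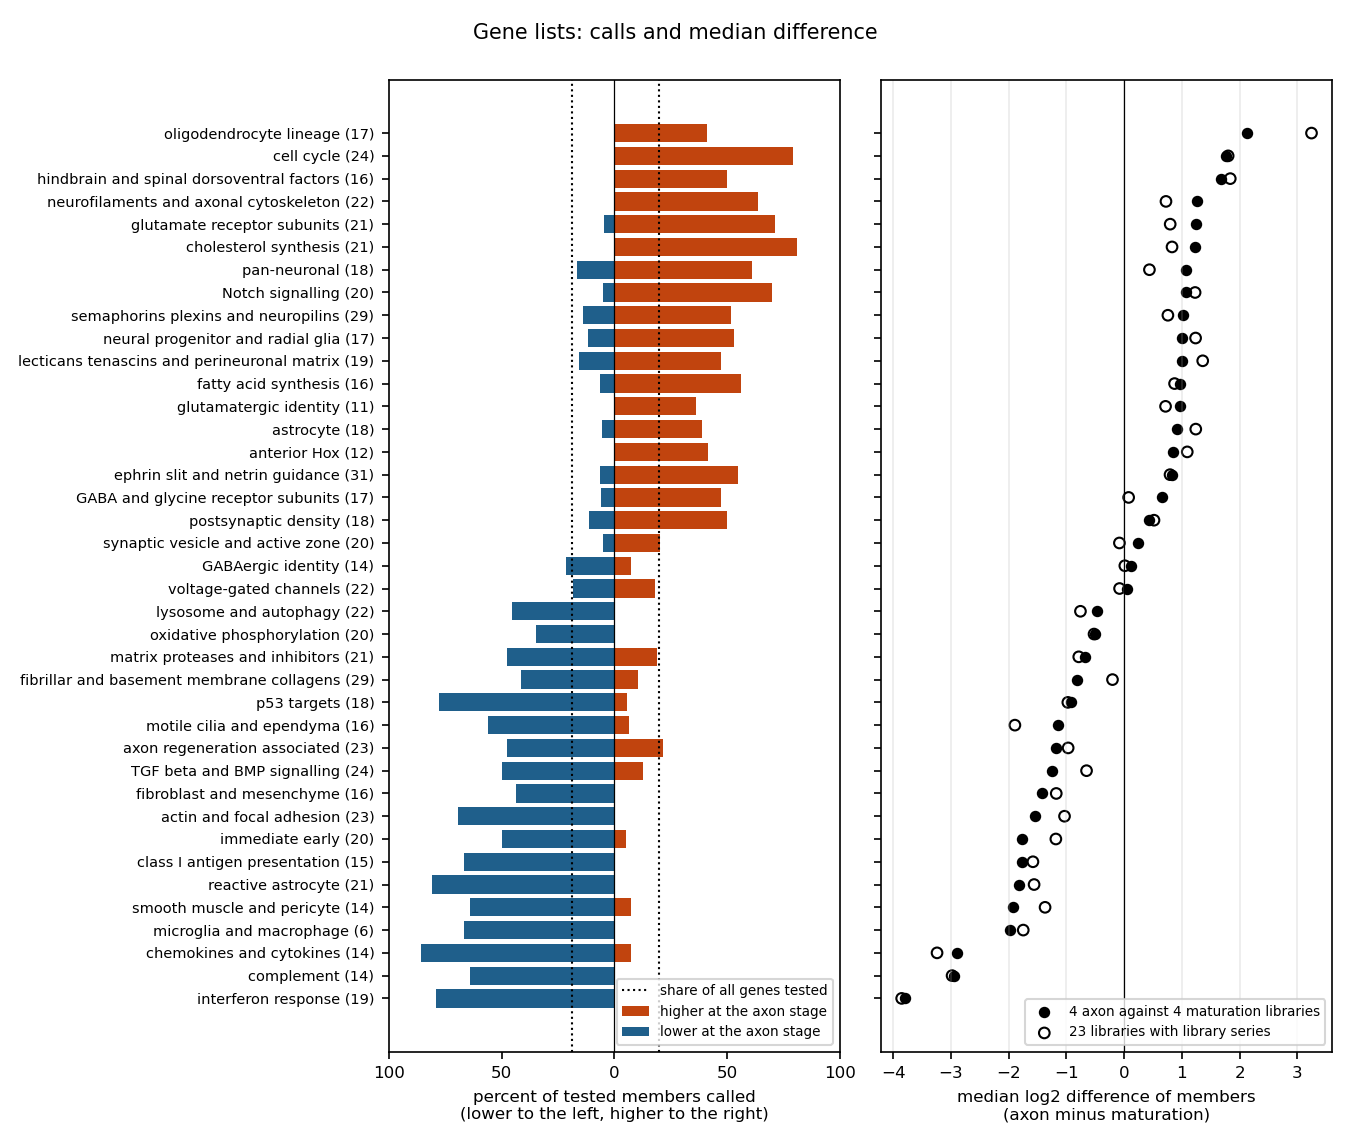
Left, percent of the tested members of 39 gene lists called lower (to the left) or higher (to the right) at the axon stage, with the number tested in brackets and dotted lines at the share of all genes, 18.8% lower and 19.7% higher. Right, the median log2 difference of the members in the 8-library fit (filled) and in the fit of 23 libraries with library series (open). Interferon response has the lowest median and oligodendrocyte lineage the highest. The oligodendrocyte median of the 8 libraries, 2.12, was 0.42 without axon replicate 4.

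Most glutamate receptor genes were higher at the axon stage, while few synaptic vesicle genes passed the test. Of 21 glutamate receptor subunits, 15 were higher and 1, Gria3, was lower (9 and 0 with summed maturation libraries, and the same counts with library series), with a median of 1.24. Grm5, a metabotropic receptor of the postsynaptic membrane, read 120.4, 98.8, 101 and 83.3 CPM against 13.2, 12.3, 28.9 and 29.8 CPM, a difference of 2.26 ± 0.32. Grm2 differed by 2.33 ± 0.26, Grm3 by 1.65 ± 0.21 and the NMDA receptor subunit gene Grin2d by 1.78 ± 0.25. Maturation replicates 1 and 2 were below replicates 3 and 4 for Grm5, and all were below the axon libraries. Among 17 GABA and glycine receptor genes, 8 were higher and 1 lower, but 2 and 3 in the fit with library series and 2 and 1 with summed maturation libraries. Without axon replicate 1, or without maturation replicate 1 or 2, 4 were higher. Gabra5 differed by 2.31 ± 0.36 and the metabotropic receptor gene Gabbr2 by 1.92 ± 0.33. Glra2, the fetal glycine receptor subunit, read 58.1, 61.0 and 62.1 CPM in axon replicates 1 to 3 and 26.5 CPM in replicate 4, which lay within the 19.4 to 28.4 CPM of the maturation libraries. It passed in the 8 libraries (1.09 ± 0.27, adjusted p = 0.0114) and not with library series (0.22 ± 0.21, adjusted p = 0.415). Of 20 genes of synaptic vesicles and the active zone, 4 were higher and 1 lower, near the background share on the higher side, with a median of 0.24 that became -0.08 with library series (3 higher and 3 lower). With summed maturation libraries 1 was higher and 0 lower, and 2 were higher without axon replicate 1 or 3 or maturation replicate 1 or 2. Sv2b was the leading member at 2.12 ± 0.32. In the postsynaptic list 9 of 18 genes were higher and 2 lower (2 and 1 with summed maturation libraries, 4 and 2 with library series, and 4 and 1 without maturation replicate 1 or 2). The scaffold genes Homer2 (1.67 ± 0.20) and Gphn (1.71 ± 0.29) were higher, and Camk2a, the kinase of mature excitatory synapses, was lower (-1.04 ± 0.16).

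Of 22 voltage-gated channel genes 4 were higher and 4 lower, near the shares over all genes of 19.7% and 18.8% (1 and 4 with summed maturation libraries). Scn2b, a sodium channel subunit of mature axons, read 10.5, 9.67, 11.2 and 6.87 CPM at the axon stage and 55.8, 60.2, 95.7 and 106 CPM at maturation, a difference of -3.05 ± 0.27 (adjusted p = 0.000151). The potassium channel gene Kcna1 (-2.22 ± 0.35) was also lower, while Kcnd2 was higher (2.24 ± 0.33). For transmitter identity, 1 of 14 GABAergic genes was higher and 3 were lower, and 4 of 11 glutamatergic genes were higher. With summed maturation libraries these counts were 1, 2 and 2. Pvalb, the calcium buffer of fast-spiking interneurons, read 1.55, 2.57, 1.39 and 2.46 CPM against 11.0, 13.9, 10.2 and 12.5 CPM and differed by -2.58 ± 0.27. The transcription factor genes Neurod1 (2.33 ± 0.42), Bcl11b (1.75 ± 0.36), Foxp2 (0.97 ± 0.22) and Neurod6 (1.87 ± 0.49) were the higher glutamatergic members.

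Most genes of dividing cells were higher at the axon stage. Of 24 cell cycle genes, 19 were higher and 0 lower, with a median of 1.76 (17 higher with summed maturation libraries and 17 with library series). Mcm6, a subunit of the replicative helicase, read 63.3, 47.2, 53.2 and 51.4 CPM in the axon libraries and 13.4, 10.8, 12.4 and 11.6 CPM in the maturation libraries. The 4 values of each stage lay close together, the groups did not overlap, and the difference was 2.16 ± 0.16 (edgeR adjusted p = 8.45e-05). Top2a, the topoisomerase of dividing cells, read 34.5, 56.9, 52.7 and 57.0 CPM against 7.87, 5.95, 3.53 and 3.96 CPM and differed by 3.24 ± 0.30. Kif11, a spindle motor, differed by 1.98 ± 0.19 and the checkpoint kinase gene Bub1b by 3.97 ± 0.43. E2F factors drive many of these genes in dividing cells, and the letters TTTNGCGC, searched on both strands with overlaps allowed, occurred in the promoters of 5 of the 20 cell cycle members that had one, against 1.57% of 27025 genes with a promoter of the same length. The promoter of Mcm6 is shown as an example of that match, from 250 bases before to 50 bases after the RefSeq start (GRCm38.p6), with the 3 matches in capitals, of which 2 overlap on opposite strands.
Mcm6, chr1:128359656-128359955, minus strand: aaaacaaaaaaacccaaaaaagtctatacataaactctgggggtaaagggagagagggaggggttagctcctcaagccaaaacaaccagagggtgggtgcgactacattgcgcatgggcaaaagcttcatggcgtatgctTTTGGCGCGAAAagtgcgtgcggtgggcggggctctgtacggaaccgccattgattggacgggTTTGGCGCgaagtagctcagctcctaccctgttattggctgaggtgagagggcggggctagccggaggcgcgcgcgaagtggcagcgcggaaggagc

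Many progenitor and Notch genes were higher as well. Of 17 genes of neural progenitors and radial glia, 9 were higher and 2, the filament genes Nes and Vim, were lower (6 and 0 with summed maturation libraries). The summed level of this list, in which Vim holds the most counts, was 2409 to 2739.5 CPM at the axon stage and 2901 to 3485 CPM at maturation. Prom1, a membrane protein of neural stem cells, read 254, 266, 200.4 and 205 CPM against 74.4, 68.2, 113 and 95.97 CPM. The groups did not overlap, and the difference was 1.40 ± 0.20 (adjusted p = 0.00103). Of 20 Notch genes 14 were higher and 1, Notch4, was lower (8 and 1 with summed maturation libraries), with a median of 1.07. The ligand gene Dll1 read 15.4, 16.9, 20.0 and 12.7 CPM against 2.38, 2.97, 3.75 and 3.84 CPM and differed by 2.33 ± 0.24. Notch3, a receptor, differed by 1.42 ± 0.15. The target genes Hes5 (4.85 ± 0.41) and Nrarp (3.44 ± 0.37) were higher too. Ligands, receptors and targets of the pathway were each among the higher genes. Factors that pattern the hindbrain and spinal cord gave 8 higher of 16 and 0 lower (4 higher with summed maturation libraries and 5 without any 1 maturation library). Lhx1, a homeodomain factor of interneurons, read 37.9, 18.7, 23.8 and 9.05 CPM against 1.84, 1.78, 3.22 and 3.46 CPM, and Evx2 2.03, 2.57, 2.63 and 0.853 CPM against 0.153, 0.0772, 0.248 and 0.19 CPM. Axon replicate 4 was the lowest axon library for both, and the differences were 3.11 ± 0.45 and 3.55 ± 0.51. Lhx5 (1.68 ± 0.33) did not pass with library series (adjusted p = 0.0873), and Sox14 (3.09 ± 0.61) did. Of 12 anterior Hox genes 5 were higher (1 with summed maturation libraries), led by Hoxa2 (0.97 ± 0.15) and Hoxb3 (0.86 ± 0.18). The Hox count was 10 without axon replicate 1, 2 or 3 without any other library, and 3 with library series.

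Glial genes differed by library within the axon stage. Olig2, a transcription factor of the oligodendrocyte and motor neuron lineages, read 23.3, 28.1, 38.3 and 26.3 CPM at the axon stage and 2.11, 2.55, 1.64 and 1.90 CPM at maturation. All axon libraries were far above every maturation library, and the difference was 3.82 ± 0.24 (adjusted p = 6.42e-05). Of 17 oligodendrocyte lineage genes tested, 7 were higher and 0 lower, 13 were higher with library series, 2 were higher with summed maturation libraries, 4 were higher without maturation replicate 1, and 6 were higher and 3 lower without axon replicate 4. The median of the list was 2.12 in the 8 libraries and 0.42 without axon replicate 4. Genes of myelinating cells were high in replicate 4. Mag read 0.797, 2.84, 2.01 and 27.8 CPM against 0.422, 0.734, 0.062 and 0.0634 CPM, and Ugt8a read 1.98, 1.96, 2.58 and 10.5 CPM against 0.691, 0.811, 0.279 and 0.539 CPM. Their differences were 4.72 ± 1.29 and 2.86 ± 0.66. Sox10, the factor that marks the lineage, read 0.364, 0.616, 0.283 and 37.8 CPM at the axon stage and 0.115, 0.116, 0.155 and 0.0634 CPM at maturation, and the count filter left it out of the 8-library test. Summed over the list, levels were 219, 364, 372 and 1157 CPM in axon replicates 1 to 4 and 214 to 241 CPM at maturation, so replicate 1 was within the range of the maturation libraries. Of 18 astrocyte genes 7 were higher and 1, Acsbg1, was lower, against 3 and 0 with summed maturation libraries and 11 and 1 without axon replicate 1. Without axon replicate 4 or maturation replicate 1 or 2, 4 were higher. Slc1a3, the glial glutamate transporter, read 617, 1173, 1075 and 1083 CPM against 187, 185, 341 and 284 CPM, a difference of 1.99 ± 0.29. Gja1, a gap junction protein of astrocytes, read 116.8, 967, 734 and 1425 CPM against 128, 118.2, 181 and 203 CPM. Replicate 1 lay below the lowest maturation library for Gja1, and the other axon libraries were above all of them (2.36 ± 0.60). Gfap, the filament of astrocytes, read 91.2, 9079, 6094 and 4752 CPM against 3054, 3252, 1888 and 2621 CPM and did not pass the test (0.89 ± 0.88, adjusted p = 0.45). Sparcl1 (2.69 ± 0.44) and Aldh1l1 (1.55 ± 0.24) were above every maturation library in all 4 axon libraries. Sox10, Gfap and Map2, and Col1a1, Gap43, Slit3 and Ntn4 elsewhere, were named after their values were seen. What part this difference between axon libraries has in the results was not tested beyond the fits that leave a library out.

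**Figure D3:**
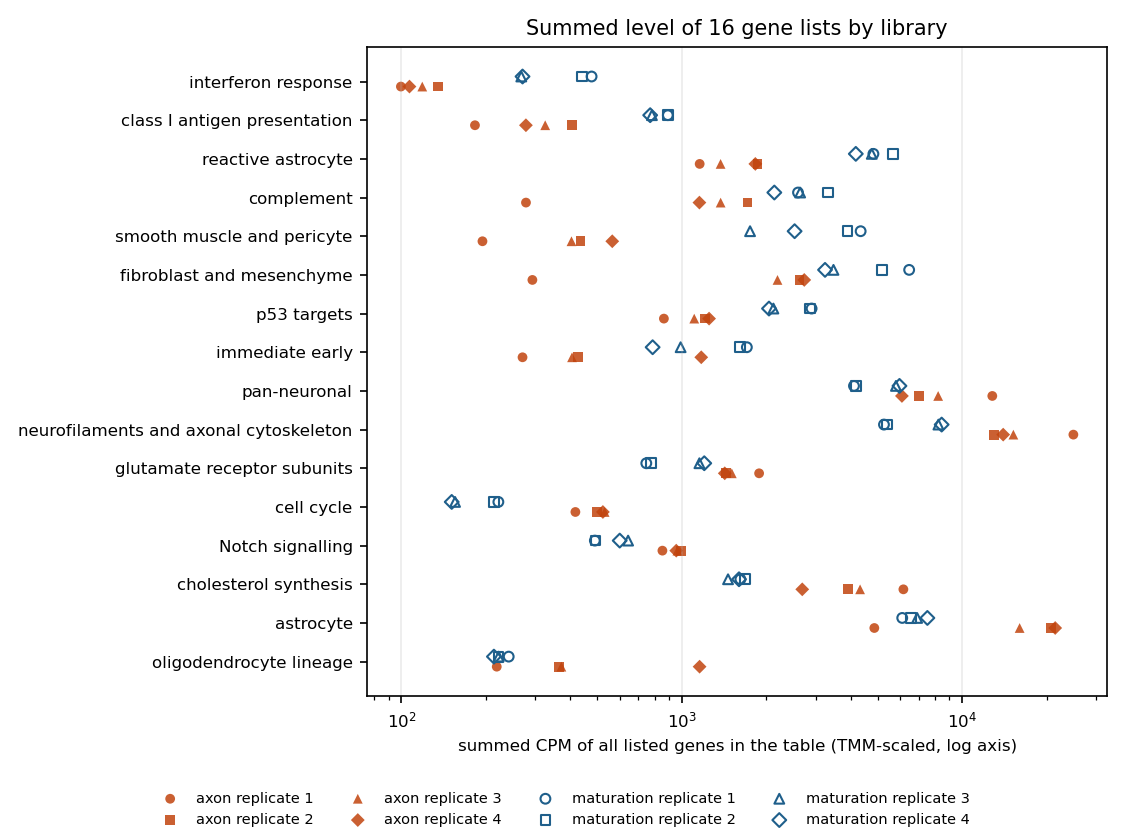
Summed CPM (log axis) of all listed genes for 16 gene lists in each of the 4 axon (filled) and 4 maturation (open) libraries, 1 symbol shape per replicate. Axon replicate 1 is lowest for complement, smooth muscle, fibroblast and astrocyte genes and highest for pan-neuronal genes, and axon replicate 4 is highest for oligodendrocyte lineage genes.

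Many genes of lipid synthesis were higher at the axon stage. Of 21 genes of the cholesterol pathway, 17 were higher and 0 lower, with a median of 1.23 (9 higher with summed maturation libraries). The fit with library series called 10 of them higher and 1 lower. Hmgcs1, which makes HMG-CoA, the substrate of the rate-limiting reductase, read 1519, 1236, 1287 and 629.7 CPM in the axon libraries and 198, 193, 212 and 223 CPM in the maturation libraries. Replicate 4 was the lowest axon library and still above all maturation libraries, with a difference of 2.50 ± 0.28 (adjusted p = 0.000326). Cyp51, a sterol demethylase, differed by 2.08 ± 0.25, Pmvk, a mevalonate pathway kinase, by 1.64 ± 0.18 and Fdps, which makes the farnesyl unit, by 2.25 ± 0.28. Fdps shares 26.2% of its sequence windows with other genes. The summed level of the list was 6166, 3911, 4322 and 2688 CPM at the axon stage and 1461 to 1678 CPM at maturation. Of 16 fatty acid genes 9 were higher and 1, the elongase gene Elovl1, was lower (5 and 1 with summed maturation libraries). The desaturase genes Fads1 (1.36 ± 0.15), Fads2 (1.61 ± 0.18) and Scd2 (1.41 ± 0.24) were higher. The factor SREBP switches on sterol genes through sterol regulatory elements, and TCACNCCAC, searched on both strands, occurred in 1 of the 15 cholesterol members with a promoter against 1.44% of 27025 genes. That member is Hmgcs1, shown over the same window as above with the match in capitals.
Hmgcs1, chr13:119690101-119690400, plus strand: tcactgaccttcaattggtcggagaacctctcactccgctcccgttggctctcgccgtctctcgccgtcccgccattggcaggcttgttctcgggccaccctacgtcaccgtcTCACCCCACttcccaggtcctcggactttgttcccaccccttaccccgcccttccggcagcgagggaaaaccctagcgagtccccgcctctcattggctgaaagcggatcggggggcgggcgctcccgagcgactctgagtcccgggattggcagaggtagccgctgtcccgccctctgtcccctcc

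Of the 12 top genes higher at the axon stage, several others act in the matrix and at the cell surface. Ncan, which encodes the proteoglycan neurocan of the young brain (chr8:70093085-70120873), read 391, 357, 400.1 and 435 CPM at the axon stage and 75.7, 83.2, 80.0 and 82.0 CPM at maturation, a difference of 2.30 ± 0.15 (adjusted p = 6.42e-05). Cspg5 (1.83 ± 0.18) and Vcan (2.26 ± 0.34), also proteoglycans, were higher, whereas Hapln4, a link protein of perineuronal nets, was lower, reading 2.67, 3.24, 5.32 and 5.88 CPM against 30.0, 40.5, 50.0 and 57.4 CPM (-3.39 ± 0.32). These belong to a list of 19 matrix genes of the nervous system with 9 higher and 3 lower (5 and 2 with summed maturation libraries). Cxadr, an adhesion molecule of the developing brain, read 549, 328, 333 and 325 CPM against 21.0, 22.5, 29.3 and 25.8 CPM, with replicate 1 above the other axon libraries (3.96 ± 0.24). The glycosyltransferase genes St6gal2 (4.35 ± 0.29), B3gat2 (3.14 ± 0.21) and B3gnt5 (3.06 ± 0.20) add sugars to surface and matrix molecules. St6gal2 read 22.3 to 47.9 CPM at the axon stage and 1.34 to 1.95 CPM at maturation. Dnmt3a, a DNA methyltransferase that sets methylation during neuronal differentiation, read 390.1, 367, 354 and 387 CPM against 87.1, 92.97, 103 and 96.3 CPM, with little spread in either stage (1.98 ± 0.14). Sox12, a factor of the SoxC group (2.61 ± 0.18), Socs2, an inhibitor of cytokine signalling (3.30 ± 0.23), and Rimklb, an enzyme that joins glutamate to N-acetylaspartate (2.23 ± 0.14), completed the set.

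On the lower side, the genes with the smallest p were low in all 4 axon libraries. Fmo2, a flavin monooxygenase (chr1:162874317-162898726), read 0.182, 0.777, 0.453 and 0.284 CPM at the axon stage and 95.3, 84.1, 75.6 and 65.5 CPM at maturation, a difference of -7.53 ± 0.41 (adjusted p = 6.42e-05). Lgals3bp, a secreted galectin-binding glycoprotein that interferon induces (chr11:118392751-118402092), read 2.82, 5.06, 4.78 and 5.69 CPM against 108.4, 101.7, 104 and 91.5 CPM (-4.47 ± 0.24). The maturation libraries were all high and close together for both genes, across the 2 pairs. Npy1r, a receptor for neuropeptide Y, read 7.20, 7.93, 7.25 and 5.92 CPM against 43.8, 43.6, 38.5 and 34.8 CPM and differed by -2.50 ± 0.17. Ptk2b, a calcium-activated tyrosine kinase, differed by -3.06 ± 0.22, Crip1, a small LIM-domain protein, by -4.42 ± 0.30, and the protease inhibitor gene Serpinb8 by -3.58 ± 0.26. Olfml3, a secreted matrix protein, differed by -2.29 ± 0.17 and Acbd4, an acyl-CoA binding protein, by -2.54 ± 0.19. The other 4 of the 12 share sequence with other genes over part of their length, so their counts are less certain. These were C1qtnf5 (-3.06 ± 0.18, 84.5% of windows shared), the arginine synthesis gene Ass1 (-2.25 ± 0.13, 38.6%), the transferrin gene Trf (-3.85 ± 0.25, 59.4%) and the sulfotransferase gene Sult1a1 (-3.97 ± 0.30, 6.58%). All 24 genes were also called with summed maturation libraries.

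Most interferon-stimulated genes were lower at the axon stage. Of 19 tested, 0 were higher and 15 lower, with a median of -3.79 (13 lower with summed maturation libraries and 14 with library series). The median was -4.19 with axon replicate 4 alone and -2.85 with maturation replicates 3 and 4 only. In the fit of genes without shared sequence 10 of 14 members were lower, with a median of -2.14, so counts of the other members are less certain. Bst2, a membrane protein that tethers budding virus, read 0.501, 1.15, 0.821 and 0.616 CPM in the axon libraries and 49.9, 48.0, 13.9 and 18.3 CPM in the maturation libraries. Maturation replicates 1 and 2 were the higher pair and replicates 3 and 4 the lower, and all were above the axon libraries. The difference was -5.38 ± 0.53 (edgeR adjusted p = 0.000208). Oasl2, of the oligoadenylate synthetase family, read 1.03, 0.696, 0.595 and 0.758 CPM against 22.3, 21.4, 9.92 and 9.42 CPM, with the same order of the maturation pairs (-4.34 ± 0.39). Xaf1, which promotes cell death, differed by -4.42 ± 0.49. Ddx58, which encodes the viral RNA sensor RIG-I, read 4.53, 9.11, 6.51 and 6.16 CPM against 31.9, 30.6, 24.4 and 21.8 CPM and differed by -2.04 ± 0.24. Over all members the summed level was 99.6, 135, 118.7 and 106.8 CPM at the axon stage and 477, 441, 268 and 270.3 CPM at maturation. Interferon-stimulated genes carry response elements bound by the factor ISGF3, and the letters GAAA, any 2 bases and GAAA, searched on both strands with overlaps allowed, occurred in 9 of the 15 members with a promoter against 3.99% of 27025 genes. The promoters of Bst2, with 2 overlapping matches, and Ddx58, with 1 match on the opposite strand within the 50 bases after the start, are shown over the same window and build as above.
Bst2, chr8:71537423-71537722, minus strand: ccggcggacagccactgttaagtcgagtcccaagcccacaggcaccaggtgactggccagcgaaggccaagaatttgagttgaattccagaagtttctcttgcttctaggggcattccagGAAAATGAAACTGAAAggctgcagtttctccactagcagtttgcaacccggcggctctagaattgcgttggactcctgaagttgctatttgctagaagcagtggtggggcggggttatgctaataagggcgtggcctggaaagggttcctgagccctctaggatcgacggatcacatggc
Ddx58, chr4:40239776-40240075, minus strand: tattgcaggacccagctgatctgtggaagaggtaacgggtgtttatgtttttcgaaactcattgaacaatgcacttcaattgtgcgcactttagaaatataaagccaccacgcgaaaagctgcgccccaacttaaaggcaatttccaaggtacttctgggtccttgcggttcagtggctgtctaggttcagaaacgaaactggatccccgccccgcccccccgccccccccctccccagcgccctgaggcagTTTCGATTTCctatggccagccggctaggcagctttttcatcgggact

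Many other immune genes were also lower. Of 15 class I antigen presentation genes 10 were lower and 0 higher, with a median of -1.78 (8 lower with summed maturation libraries). H2-K1, a class I heavy chain, read 41.7, 99.3, 77.5 and 82.9 CPM against 277, 268, 288 and 277 CPM, a difference of -1.88 ± 0.25. H2-D1 (-1.82 ± 0.26), H2-T23 (-2.14 ± 0.29) and H2-Q4 (-2.16 ± 0.31) followed. The class I genes resemble one another, and these share 9.63% (H2-K1) to 21.8% (H2-Q4) of their windows with other genes, so their counts are uncertain. Of 14 chemokine and cytokine genes 12 were lower and 1, Il33, was higher (8 and 0 with summed maturation libraries). Ccl2, which attracts monocytes, read 0.16, 0.777, 1.30 and 0.616 CPM against 50.6, 73.5, 7.47 and 6.66 CPM, and Cxcl1, which attracts neutrophils, 0, 0.295, 0.566 and 0.758 CPM against 35.7, 50.5, 9.58 and 6.72 CPM. Maturation replicates 1 and 2 were several times above replicates 3 and 4 for both, and no axon library reached 2 CPM. Their differences were -5.60 ± 0.98 and -6.07 ± 1.01. Ccl20 and Il6 were called lower as well, at or below 0.0849 CPM in every axon library. Of 14 complement genes 9 were lower and 0 higher (7 with summed maturation libraries). C1s1, a protease of the classical pathway, read 3.67, 10.5, 7.22 and 6.16 CPM against 60.7, 61.1, 49.5 and 36.4 CPM (-2.91 ± 0.33), and Cd59a, which blocks the terminal complex, differed by -2.31 ± 0.24. C1ra (-3.73 ± 0.34) and C1s1 share 50.8% and 21.9% of their windows with other genes. Of the markers of microglia and macrophages, C1qc and Tyrobp were at 0 in all 8 libraries and 10 of 16 were too low to test. Of the 6 tested markers, 4 were lower and 0 higher (2 and 0 with summed maturation libraries). Tmem119 read 0.0683, 2.89, 1.87 and 1.71 CPM against 38.7, 39.5, 10.6 and 9.67 CPM (-3.92 ± 0.87), Cd68 0.228, 0.295, 0.623 and 4.31 CPM against 16.7, 20.3, 9.11 and 13.3 CPM (-3.52 ± 0.88), and P2ry12 differed by -2.93 ± 0.57. The summed level of the 16 markers was 26.0 to 62.7 CPM at the axon stage and 107.5 to 164 CPM at maturation, and its part in the immune genes was not tested.

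Most genes of reactive astrocytes were lower while several astrocyte markers were higher. Of 21 such genes 17 were lower and 0 higher, with a median of -1.82 (9 lower with summed maturation libraries, 10 with library series and 8 with axon replicate 4 alone). Lcn2, a secreted acute phase protein, read 0, 0.188, 0.113 and 0.237 CPM in axon replicates 1 to 4 and 106, 272, 37.6 and 42.6 CPM at maturation, where replicate 2 was the highest. The difference was -9.85 ± 1.00 (adjusted p = 0.000232), a value that rests on few counts at the axon stage. Steap4, a metalloreductase, read 0.0911, 0.803, 0.34 and 0.711 CPM against 32.6, 38.7, 26.0 and 21.7 CPM (-5.97 ± 0.56). Cp, which encodes the copper protein ceruloplasmin, read 121, 94.6, 67.3 and 37.1 CPM against 599.6, 686, 719 and 538 CPM (-2.99 ± 0.34). H2-D1, C3 and Cxcl10 of this list were also counted among class I, complement and chemokine genes above, and Vim among progenitor genes. Gfap was counted among the astrocyte markers and not in this list. It lay below every maturation library in axon replicate 1 and above them in the other axon libraries, and did not pass the test.

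Many contractile genes and some mesenchymal and matrix genes were lower at the axon stage. Of 14 smooth muscle and pericyte genes 9 were lower and 1, Notch3, higher (5 and 1 with summed maturation libraries). Tagln, an actin-binding protein of smooth muscle, read 36.3, 90.0, 90.4 and 154 CPM at the axon stage and 2309, 2049, 805 and 1193 CPM at maturation. Axon replicate 1 was the lowest, and all axon libraries were below all maturation libraries (-4.10 ± 0.51). Myl9, a myosin light chain, differed by -2.92 ± 0.38 and the adhesion molecule gene Mcam by -1.71 ± 0.31. Of 16 fibroblast genes 7 were lower and 0 higher (4 lower with summed maturation libraries and 4 with library series). The count with library series is near the 22.9% of all genes that were lower in that fit. The lower members included Fbn1 (-1.48 ± 0.25, with an edgeR adjusted p of 0.119 with library series) and Pdgfrb (-1.37 ± 0.25). S100a4 (-3.97 ± 0.74, 47.4% of windows shared) and Thy1, which neurons also express, were lower too. Col1a1, the main fibrillar collagen of fibroblasts, read 11.7, 521, 433 and 569 CPM against 1136, 818, 415 and 359.7 CPM, with axon replicate 1 far below the other libraries, whose groups overlapped, and did not pass (-0.83 ± 0.84, adjusted p = 0.459). The summed level of the fibroblast list was 293, 2628, 2193 and 2732 CPM at the axon stage and 6466, 5160.3, 3473 and 3240.5 CPM at maturation. Of 23 actin and focal adhesion genes 16 were lower and 0 higher (11 lower with summed maturation libraries, and 11 lower and 1 higher with library series). The summed level of this list was 6605, 6277, 6186 and 12591 CPM in axon replicates 1 to 4 and 8770.5 to 12634 CPM at maturation. Replicate 4 thus lay within the range of the maturation libraries. Flna, an actin crosslinker, read 278, 459, 406 and 502 CPM against 1658, 1583, 1049 and 1213 CPM (-1.74 ± 0.25). Actn1 differed by -1.51 ± 0.18 and the collagen receptor gene Itga11 by -2.19 ± 0.30. Collagens gave 12 of 29 lower and 3 higher (8 and 0 with summed maturation libraries, and 12 and 5 without axon replicate 1). With library series 6 were lower and 2 higher, the lower count being near the 22.9% over all genes. Their median was -0.81 in the 8 libraries and -0.20 with library series. Col4a3, a basement membrane chain, read 0.433, 1.10, 0.538 and 1.33 CPM against 17.5, 19.6, 18.5 and 17.3 CPM (-4.45 ± 0.37), and its neighbour Col4a4 differed by -4.30 ± 0.48. Col8a2 (-2.80 ± 0.34) and Col5a3 (-3.11 ± 0.28) were lower too.

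Matrix proteases and genes of growth factor signals were called in both directions. Of 21 proteases and inhibitors 10 were lower and 4 higher (7 and 1 with summed maturation libraries), the higher count being near the share over all genes. Mmp3, a matrix metalloprotease, read 0, 0, 0.0283 and 0 CPM at the axon stage, a single count in replicate 3, and 7.48, 8.42, 2.54 and 5.96 CPM at maturation. Adamts5 differed by -2.33 ± 0.23, the inhibitor gene Timp3 by -1.72 ± 0.27 and Mmp11 by -1.51 ± 0.24. Of 24 genes of TGF beta and BMP signalling 12 were lower and 3 higher (6 and 1 with summed maturation libraries, 5 and 3 with library series, where 22.9% of all genes were lower). The ligand gene Tgfb1 differed by -2.49 ± 0.38. The receptor gene Tgfbr2 read 15.7, 17.8, 13.0 and 15.4 CPM against 63.4, 51.1, 69.1 and 59.8 CPM (-1.98 ± 0.16), whereas the partner receptor gene Tgfbr1 was higher (0.85 ± 0.15). Grem1, a BMP antagonist, differed by -2.19 ± 0.36.

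Among activity-dependent genes and genes of the injury response, more were lower than higher in the 8 libraries, and the counts moved with the libraries used. Of 20 immediate early genes 10 were lower and 1, Homer1, higher. The counts were 16 and 1 without axon replicate 4, 3 and 3 with replicate 4 alone, 6 and 1 without axon replicate 3, 5 and 2 with library series, and 4 and 0 with summed maturation libraries. The summed level was 270.3, 426, 406 and 1173 CPM in axon replicates 1 to 4, so replicate 4 was the 1 axon library within the 787 to 1705 CPM of the maturation libraries. Dusp1, a phosphatase that ends MAP kinase signals, read 8.75, 12.4, 11.9 and 13.3 CPM against 228, 218, 104.5 and 89.2 CPM (-3.79 ± 0.35). Bdnf, a neurotrophin induced by activity, read 19.1, 8.60, 11.6 and 18.1 CPM against 77.7, 95.8, 96.3 and 96.2 CPM (-2.67 ± 0.26). Both had non-overlapping groups. Over the list 9 of 20 genes did not overlap, near the 41.7% of all genes. Npas4, an activity-dependent factor, differed by -1.86 ± 0.40. Of 23 genes associated with axon regeneration 11 were lower and 5 higher (8 and 3 with summed maturation libraries, 8 and 6 with library series, and 6 and 7 with axon replicate 4 alone). The higher members were Sox11, Gap43, Klf7, Smad1 and Basp1, and Klf7, a factor of axon growth, differed by 1.29 ± 0.16. Gap43, a growth cone protein, read 993, 571, 640.2 and 368 CPM against 300.3, 296, 279 and 285 CPM (1.15 ± 0.28), and passed in the 8 libraries but not with library series (adjusted p = 0.652). Among the lower members, the neuropeptide gene Gal read 2.28, 2.44, 2.10 and 9.76 CPM against 60.3, 50.5, 60.1 and 58.6 CPM (-3.82 ± 0.52), Ecel1, a protease of injured neurons, differed by -2.30 ± 0.17, and Sprr1a, which injury induces in sensory neurons, read 0 to 0.332 CPM against 5.33 to 12.0 CPM.

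Most of the p53 targets tested were lower, and so was a smaller share of the lysosomal and respiratory chain genes. Of 18 p53 targets 14 were lower and 1, Sesn1, higher (6 and 0 with summed maturation libraries, 11 and 0 with library series, and 9 and 0 without maturation replicate 1 or 2). Cdkn1a, which encodes the cell cycle inhibitor p21, read 88.8, 70.1, 76.0 and 120.02 CPM against 284, 281, 233 and 232 CPM (-1.54 ± 0.20). Ccng1 differed by -1.69 ± 0.25, Btg2 by -2.06 ± 0.36 and Phlda3 by -1.25 ± 0.19. No p53 target named here overlapped between stages, which their choice by small p favours. Over the list 14 of 18 did not overlap, against 41.7% of all genes. Of 22 lysosome and autophagy genes 10 were lower and 0 higher (5 lower with summed maturation libraries). Gla, the alpha-galactosidase, read 11.8, 8.11, 10.3 and 9.05 CPM against 30.0, 34.9, 30.1 and 36.7 CPM (-1.74 ± 0.17). Gpnmb, a glycoprotein of phagocytes and lysosomal stress, differed by -4.78 ± 0.45, the sialidase gene Neu1 by -1.11 ± 0.14 and the cathepsin gene Ctsz by -2.57 ± 0.31. Of 20 respiratory chain genes 7 were lower, 0 higher and 13 not called, 12 were lower with library series and 1 was lower with summed maturation libraries, where 7.87% of all genes were lower. Without maturation replicate 1, 3 were lower, and 4 without replicate 2. Cox4i1, a subunit of cytochrome oxidase, read 288, 264, 314 and 289 CPM against 922, 845, 518 and 592 CPM (-1.32 ± 0.22), Cycs, the cytochrome c gene, differed by -0.83 ± 0.18, and Ndufa1 (-1.27 ± 0.35) and Cox7a2 (-1.18 ± 0.29) were lowest in axon replicate 4. Motile cilia genes gave 9 of 16 lower and 1 higher (5 and 1 with summed maturation libraries). Rsph1, of the radial spoke, read 11.8, 18.9, 11.9 and 8.62 CPM against 39.9, 32.9, 66.7 and 54.6 CPM (-1.92 ± 0.30), Cfap44 differed by -1.88 ± 0.33 and Dnali1 by -2.08 ± 0.45. Rfx3, a factor that drives cilia genes, was the higher member (1.61 ± 0.33).

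**Figure D4:**
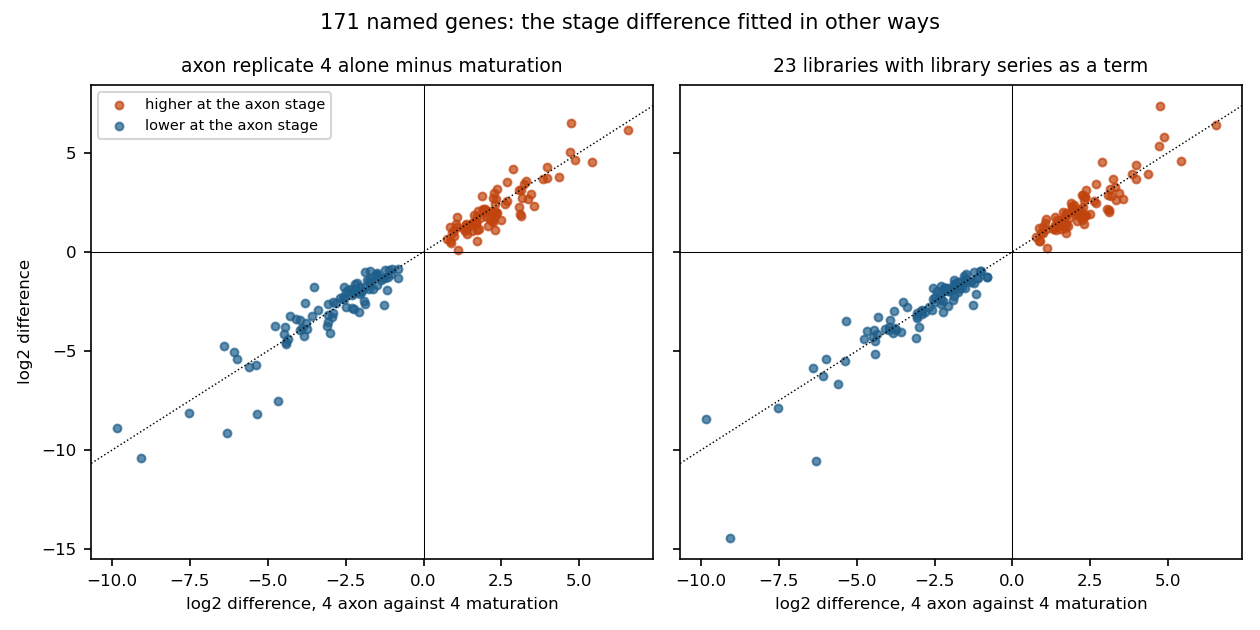
Log2 difference of the 171 named genes in the 8-library fit (horizontal axis) against that of axon replicate 4 alone minus maturation (left) and that of the 23-library fit with library series (right), with a dotted line of equality; axon replicate 4 is 1 of the 8 libraries, so the axes share data. Higher genes (red) stay above 0 and lower genes (blue) below 0 in both panels.

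The direction of the stage difference was checked in the library that shares the series of the maturation libraries. Of 6181 called genes with a value, 6142 (99.21%) had the same sign in axon replicate 4 alone, which is 1 of the 8 libraries behind those calls. For the 24 top genes that sign and both fits were part of the rule. All 171 named genes kept their sign under every setting in which they were tested, and 130 passed under every one. The comparison within a series does not remove the batch column, in which axon replicate 4 and the maturation libraries differ.

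The stage difference was then set against that of the B6 control cultures, 4 libraries a stage, with the interaction term of a 16-library fit. Of 17086 genes, the difference was more positive in WSB for 265 (1.55%) and more negative for 556 (3.25%). These counts treat the 4 maturation libraries of a strain as independent, although in B6 too the culture names put them in 2 pairs. With the libraries of a pair summed in both strains, edgeR called 0 of 18055 genes in either direction (1933 at an unadjusted p under 0.05), and DESeq2 on the same sums called 77 and 279. So with edgeR none of the strain differences named below passed with summed libraries, where the smallest adjusted p was 0.1106. All 821 differences called in the 16 libraries had the same sign there. On the unsummed libraries DESeq2 gave 766 and 1105, and without maturation replicate 1 of WSB the counts were 62 and 250, without replicate 2 they were 109 and 296, and without axon replicate 1 they were 537 and 760. Levels in the next sentences are means ± SD of 4 libraries, scaled over the 16. Lgals9, a galectin, read 3.45 ± 0.749 CPM at the axon stage and 26.8 ± 8.35 CPM at maturation in WSB, and 38.2 ± 15.0 and 23.0 ± 2.56 CPM in B6. Its WSB axon libraries were all below 5 CPM, while the B6 axon libraries ranged from 25.0 to 52.1 CPM and overlapped the B6 maturation libraries, and the strain difference was -3.69 ± 0.40 (adjusted p = 0.000667). Col5a3, a minor fibrillar collagen, read 3.39 ± 1.15 and 29.4 ± 5.64 CPM in WSB but 33.1 ± 13.3 and 30.7 ± 5.03 CPM in B6 (-3.22 ± 0.38, adjusted p = 0.000982). Tmem88, an inhibitor of Wnt signals, differed between strains by -4.57 ± 0.50, the protease inhibitor gene Serpinb1b by -3.16 ± 0.36, Crip1 by -3.81 ± 0.46 and Ptk2b by -2.18 ± 0.26. For Ptk2b both strains were lower at the axon stage, to 3.17 ± 0.739 CPM in WSB and 15.6 ± 3.38 CPM in B6. On the positive side, the glycine transporter gene Slc6a9 read 98.97 ± 27.6 and 45.5 ± 3.56 CPM in WSB and 36.0 ± 5.21 and 69.3 ± 11.0 CPM in B6, so that the stages had the opposite order in the strains (2.07 ± 0.28, adjusted p = 0.00207). Wdfy1, an endosomal adaptor, read about the same in both WSB stages, 113 ± 7.98 and 113 ± 15.4 CPM, and 15.0 ± 0.735 against 44.6 ± 13.0 CPM in B6 (1.58 ± 0.25). The zinc finger gene Zfp984 (3.03 ± 0.39), the chromatin gene Phf10 (1.72 ± 0.23), Arl14ep (1.59 ± 0.22) and the sphingolipid enzyme gene Samd8 (1.19 ± 0.19) were also more positive in WSB. Zfp984 shares 54.5% of its windows, so its counts are uncertain. Axon replicate 4 of WSB is of another library series than the B6 axon libraries, and strain and series cannot be told apart for it.

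**Figure D5:**
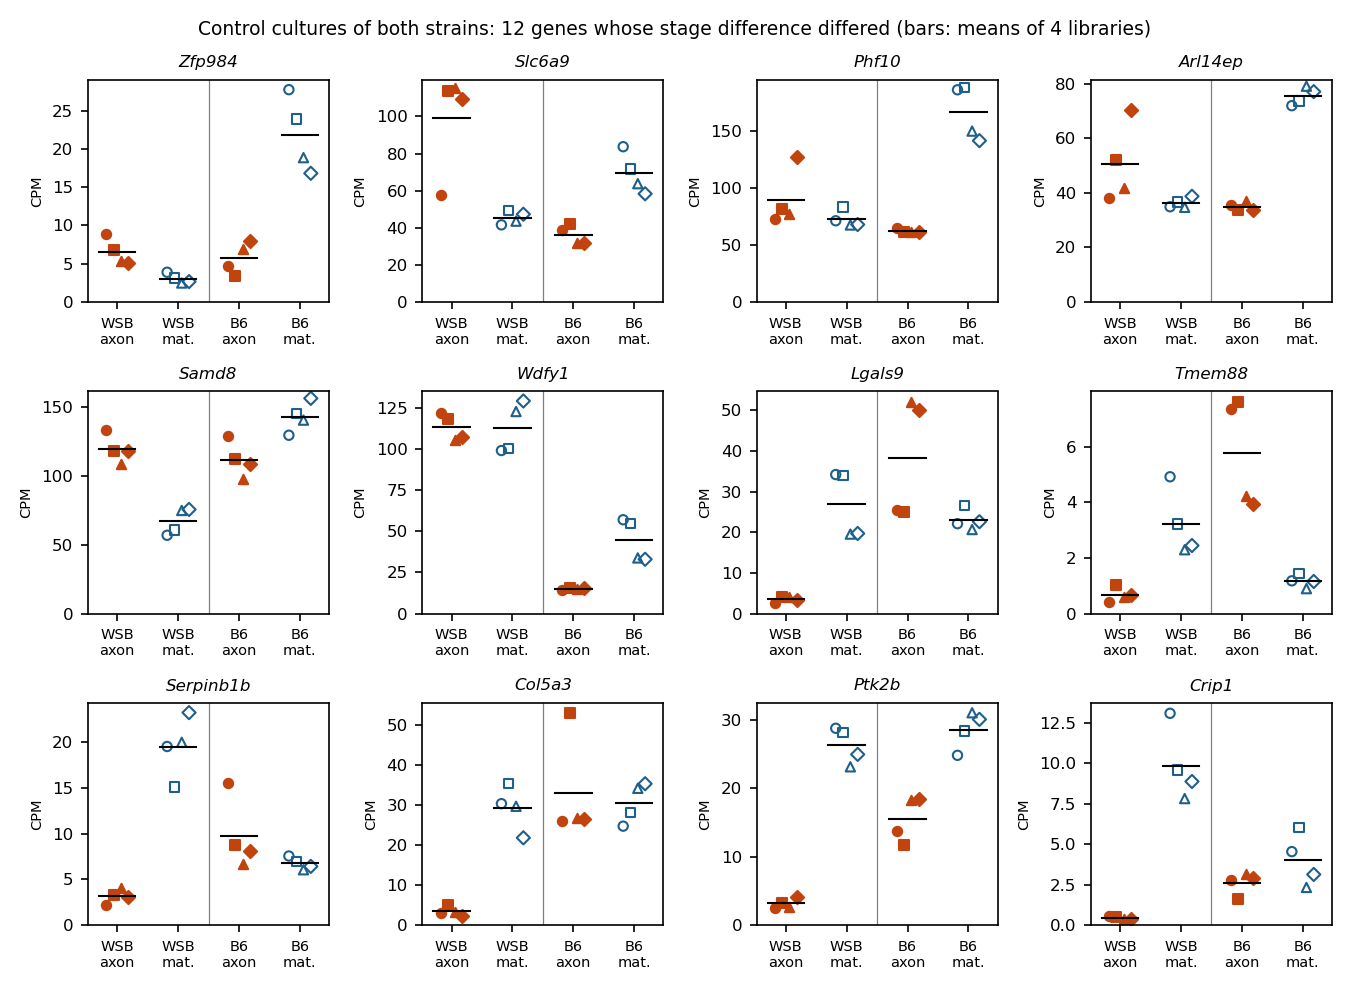
CPM of the 12 genes with the smallest p for the strain difference, 6 in each direction, in the 4 axon (filled) and 4 maturation (open) control libraries of WSB and of B6, with bars at the means. Lgals9 and Col5a3 are low in the WSB axon libraries only, and Slc6a9 has the opposite order of stages in the 2 strains.

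Among the gene groups, 9 of 19 interferon genes had a more negative stage difference in WSB than in B6 and 0 a more positive one, with a median of -1.43. Oasl2 differed between strains by -3.50 ± 0.60 and Xaf1 by -3.96 ± 0.72. Of 29 collagens 12 were more negative and 1 more positive, with a median of -2.06, and Col8a2 differed by -3.47 ± 0.60. Of 24 cell cycle genes 6 were more negative, with a median of -1.21, among them Top2a (-2.63 ± 0.60). Of 16 fibroblast genes 5 were more negative, with Col1a1 at -3.96 ± 1.07 (adjusted p = 0.0469). Of 22 axonal cytoskeleton genes and 21 cholesterol genes 0 passed this test. That is near the shares over all genes, 1.55% more positive and 3.25% more negative. Their medians were -0.14 and -0.24. With summed maturation libraries edgeR called 0 members of these lists in either direction. These lists were read beside a median of -0.0091 over all genes.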

How the data were processed

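RNA-seq of poly(A) RNA was prepared with a stranded kit. The authors deposited a table of expected counts, which per the submitters' processing notes came from Bowtie2, RSEM, featureCounts and limma on GRCm38, versions not given in the sources used here. Values that were not whole (9.318%) were rounded, and repeat runs were summed. Of 38924 gene identifiers, 37607 had a symbol in GENCODE M21. Depth was 24.05 to 45.67 times 1e6 per library, and CPM was computed here with TMM factors.

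The 4 axon and 4 maturation libraries were compared with edgeR 4.0.16 (R 4.3.3; filterByExpr, robust quasi-likelihood test, Benjamini-Hochberg over all genes tested, threshold 0.05). Further fits had 23 WSB libraries (8 controls and 15 treated with ID-8, cut or both) with library series, and 16 control libraries with an interaction term. Alternatives were DESeq2 1.42.0, size factors in place of TMM, other count filters, first runs only and single libraries left out. Subsets of libraries by pair, and sums by pair of culture names, were chosen after seeing the data. The scripts were tested on simulated counts.

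Members and lists were chosen with earlier results of these data known. Named genes were the 12 with the smallest p in each direction at 2-fold or more, called in both fits, at a mean level of 1 or more (log2 CPM), no overlap and the same sign in axon replicate 4. To these came up to 4 called members with the smallest p of each of 39 described lists, out of 61, and the 6 in each direction for the strain difference. Where 5 or fewer members moved, others were named after their values were seen. Shared sequence is the percent of 50-base windows of a gene's transcripts found in another gene, with 5% or more called shared. Promoters came from the RefSeq table. Values of some genes are not reported here; they stay in the counts of lists.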

Additional observations from a re-analysis of the deposited data

Results flagged for a closer look

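Among 332 groups of 4 libraries (166 named genes at 2 stages), 17 held a library that stood apart from the other 3. Over both stages that count is near the rate of about 1 in 20 that chance flags. Apart from Bdnf, however, all the flags were at the axon stage, most of them in replicates 1 and 4. The pooled rate therefore describes neither stage by itself. Axon replicate 1 was high for Cxadr (549 CPM), Sox12 (84.6 CPM), Dcx (779 CPM), Klf7 (149.9 CPM) and Aldh1l1 (174.6 CPM). Axon replicate 4 was high for Mag (27.8 CPM), Ugt8a (10.5 CPM), Gal (9.76 CPM), Cd68 (4.31 CPM), Hoxb3 (34.4 CPM) and Ctsz (23.4 CPM). It was low for Glra2 (26.5 CPM), Plxna3 (69.4 CPM), Scd2 (2718 CPM) and Ndufa1 (11.1 CPM). Maturation replicate 1 was low for Bdnf (77.7 CPM). Axon replicate 3 was the 1 axon library with a count of Mmp3 (0.0283 CPM).

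The stage difference itself differed between WSB and B6 by the interaction test for 12 genes that the naming rule chose. On the log2 scale it was more positive in WSB for Zfp984 (3.03), Slc6a9 (2.07), Phf10 (1.72), Arl14ep (1.59), Wdfy1 (1.58) and Samd8 (1.19). It was more negative in WSB for Tmem88 (-4.57), Crip1 (-3.81), Lgals9 (-3.69), Col5a3 (-3.22), Serpinb1b (-3.16) and Ptk2b (-2.18). With the maturation libraries of each pair summed, 0 of the 12 passed edgeR (adjusted p of 0.1106 to 0.1896), while all 12 passed DESeq2. Of these, Lgals9 and Col5a3 encode a galectin and a collagen, and Slc6a9 encodes a glycine transporter.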

How the results depend on the processing

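The counts of genes moved by over 1.5 times when only maturation replicates 3 and 4 were kept (1193 higher and 1344 lower). They did so too when the maturation libraries of each pair were summed (1083 and 1342). With 1 library left out the 8-library counts were 2208 to 3722 higher and 2216 to 3778 lower, and those of the fit with library series 2584 to 3507 and 3033 to 3864. For the strain difference they were 62 to 537 more positive and 250 to 787 more negative, DESeq2 gave 766 and 1105, and no filter on low counts gave 124 more positive. With maturation libraries summed per pair in both strains edgeR called 0 and 0 strain differences and DESeq2 77 and 279. The cause was not tested, apart from the smaller number of samples where libraries were dropped or summed. Genes without shared sequence gave 3052 higher and 2525 lower, which moved the share of higher calls among called genes to 54.72%, from 51.19%. No setting reversed a named gene, and 20 of 171 lost their call with summed maturation libraries, 25 with maturation replicates 3 and 4 only and 22 with axon replicate 4 alone. The list medians of synaptic vesicle genes and voltage-gated channels changed sign between settings. No paired analysis was possible because replicate numbers follow accession order and do not tie a library of 1 stage to a library of the other. Depth was highest in axon replicate 1, and genes at a few counts, such as Mmp3 and Lcn2 at the axon stage, have uncertain differences.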

Other observations

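Genes of neurotrophic signalling, which support survival and growth of neurons, moved in both directions, a pattern chosen after the values were seen. Of 19 tested, 7 were higher at the axon stage, among them the receptor genes Ntrk2, Ntrk3, Ngfr, Gfra2, Cntfr and Lifr, and 4 were lower, among them the ligand genes Bdnf, Ntf3 and Lif. The counts were 3 and 2 with summed maturation libraries, and the background was 19.7% higher and 18.8% lower. Ntrk2, the receptor for the product of Bdnf, read 610.0, 1615, 1341 and 1313 CPM in the axon libraries and 370.2, 385, 558 and 563 CPM in the maturation libraries. All 4 axon libraries were above every maturation library. The difference was 1.38 ± 0.31 (edgeR adjusted p = 0.00809).

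Wnt signalling genes moved both ways, with 6 of 26 higher and 9 lower (3 and 5 with summed maturation libraries). The ligand genes Wnt7a (1.88 ± 0.36) and Wnt7b (2.51 ± 0.24) were higher, and the secreted inhibitor gene Sfrp4 (-5.02 ± 0.65) was lower. Of 23 genes of glycolysis and hypoxia, 1 was higher and 1 lower in the 8 libraries, against 9 and 1 with library series and 0 and 0 with summed maturation libraries. Of 22 cytosolic ribosomal protein genes, 1 was higher and 3 lower, with a median of -0.33, and 0 and 1 with summed maturation libraries.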
